A study of Homo sapiens with 9 samples.

Results

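The genes described here are 9 growth factor ligands, the EGF family members NRG1, AREG, EREG, HBEGF, TGFA and BTC, and 3 ligands of other receptor tyrosine kinases, FGF2, PDGFA and VEGFC. They were followed through every probe set annotated to 1 of these genes alone. A probe set is a group of short array probes that together report a transcript. The array annotation used here named 19 such probe sets for 8 of the 9 genes, out of 22215 human probe sets that covered 11963 genes. It names none for AREG, the gene for amphiregulin, which therefore has no value below.

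RNA from the breast cancer cell line MDA-MB-231 was hybridised to 9 Affymetrix human genome expression arrays, 3 for each of 3 cell populations. The paclitaxel-resistant cells were kept in 7 nM paclitaxel with 1 µM verapamil, and the docetaxel-resistant cells in 2 nM docetaxel with 1 µM verapamil. The sensitive cells had 1 µM verapamil and no taxane. Paclitaxel and docetaxel are taxanes, drugs that stabilise microtubules, and verapamil is a calcium channel blocker that also inhibits the efflux pump P-glycoprotein. Verapamil was thus present in all groups, and cells without it were not analysed here. The labels describe 1 line for each resistance. The 3 arrays of a group came from separate passages, so the spread between them is that of passages of a line, not of independently selected lines. Because the resistant cells were grown in drug, the selected line and the drug in the medium cannot be told apart.

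The values are probe set intensities on a linear scale. Array medians lay between 33.7 and 43.9, and 24.0% to 27.0% of the human probe sets of an array were below 16. Tests were made on log2(intensity + 16) after quantile normalisation, which understates changes of dim probe sets. Differences are given on that log2 scale with their standard error (SE), and one was called when its Benjamini-Hochberg adjusted p from limma over all human probe sets was below 0.05. Both comparisons with sensitive cells use the same 3 sensitive arrays. The cells are labelled adherent epithelial: mean KRT18 intensity was 3154 in paclitaxel-resistant, 3325 in docetaxel-resistant and 3640 in sensitive cells, whereas the adhesion marker EPCAM averaged 14.3 in paclitaxel-resistant, 14.8 in docetaxel-resistant and 22.1 in sensitive cells, near the added constant of 16. Of the 6 epithelial markers KRT7 alone was called, and its 2 probe sets disagreed. The brighter was higher by 0.87 in the paclitaxel line (limma adjusted p = 0.00301) and by 0.55 in the docetaxel line (limma adjusted p = 0.0355). The dimmer, 214031_s_at, was called lower in the paclitaxel line, by -0.49 (limma adjusted p = 0.0167). In the docetaxel line it differed by -0.30 and was not called (limma adjusted p = 0.127). Of 5 mesenchymal markers VIM and FN1 were called lower in both lines, and the summed intensity of the 5 was 5820.4 to 6654 in paclitaxel-resistant, 5103 to 5364 in docetaxel-resistant and 9190 to 11153 in sensitive cells. The part of these differences in the ligand results was not tested. In RNA from a whole culture, fewer cells that make a transcript and less of it per cell cannot be told apart.

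EGF family ligands are made as membrane-anchored precursors. Metalloproteases of the ADAM family cut them off the cell surface, and the freed ligand binds receptors of the ErbB family on the same or a neighbouring cell. TGFA, AREG, EREG, HBEGF and BTC bind EGFR, EREG, HBEGF and BTC also bind ERBB4, and the neuregulin NRG1 binds ERBB3 and ERBB4. FGF2 acts through FGF receptors with heparan sulfate as a partner, PDGFA through PDGFRA, and VEGFC through FLT4 and KDR. In breast epithelium such ligands are known as local growth signals, and several of them are themselves switched on by the ERK pathway that they activate.

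TGFA and EREG, called against sensitive cells in both resistant lines, and VEGFC, called in the docetaxel line, start at unlike sequences. The RefSeq promoter table (GRCh38.p14) matched 8 of the 9 ligands, all but NRG1, and the 250 bases before each start were searched on both strands for 4 motifs. The 120 bases just before the start are printed below in lower case, 5′ to 3′ towards the gene, to let the 3 promoters be compared, and capitals mark a motif match. They lie at chr4:74365025-74365144 on the plus strand for EREG, at chr2:70553827-70553946 on the minus strand for the TGFA start farthest upstream, and at chr4:176792923-176793042 on the minus strand for VEGFC.
EREG: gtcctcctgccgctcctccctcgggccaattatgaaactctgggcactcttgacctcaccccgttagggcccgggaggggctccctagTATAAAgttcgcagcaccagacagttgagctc
TGFA: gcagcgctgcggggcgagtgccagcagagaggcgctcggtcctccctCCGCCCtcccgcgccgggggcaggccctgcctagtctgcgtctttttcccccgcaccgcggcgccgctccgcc
VEGFC: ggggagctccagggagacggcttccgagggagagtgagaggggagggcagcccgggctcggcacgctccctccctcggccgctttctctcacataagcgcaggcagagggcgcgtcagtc
EREG holds a TATA box (TATAAA) 32 bases before its start and no GC box (GGGCGG). AREG, its neighbour on chromosome 4, also holds TATAAA, 29 bases before its start, and a cAMP response element (TGACGTCA) 65 bases before it. Unlike EREG, AREG holds a GC box too, 9 bases before its start. At the start shown, TGFA holds no TATAAA and 3 GC boxes in the searched stretch, of which the one printed lies on the other strand and so reads CCGCCC. The other TGFA start searched holds neither motif. VEGFC holds 2 GC boxes, 213 and 189 bases before its start and thus outside the printed stretch. Of all 35116 promoters in the table, 10.7% hold TATAAA, 42.6% GGGCGG, 1.65% TGACGTCA and 6.57% the AP-1 site TGANTCA, which none of the 8 ligands holds. A match of letters is a description and shows no factor bound there.

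The ligands did not move as a group. Of the 19 probe sets, 1 was higher and 3 were lower in paclitaxel-resistant than in sensitive cells, from 2 of the 8 genes measured, and 15 were not called. That is 21.1% of the member probe sets, close to the 18.6% called among all human probe sets, where 9.21% were called higher and 9.37% lower. In docetaxel-resistant against sensitive cells 1 was higher and 5 were lower, from 4 of the 8 genes, and 13 were not called. That is 31.6%, against 17.7% of all human probe sets, where 9.34% were called higher and 8.32% lower. Between the resistant lines 1 probe set was called, higher in paclitaxel-resistant cells, which is 5.26% against 1.6% of all, with 0.801% called in each direction. The median difference over the 19 was -0.10 for paclitaxel-resistant minus sensitive, against -0.026 over all probe sets, and -0.12 for docetaxel-resistant minus sensitive, against -0.046. Probe sets of a gene share their transcript, so the 19 are not independent: 3 of the calls in each comparison with sensitive cells are TGFA.

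**Figure D1:**
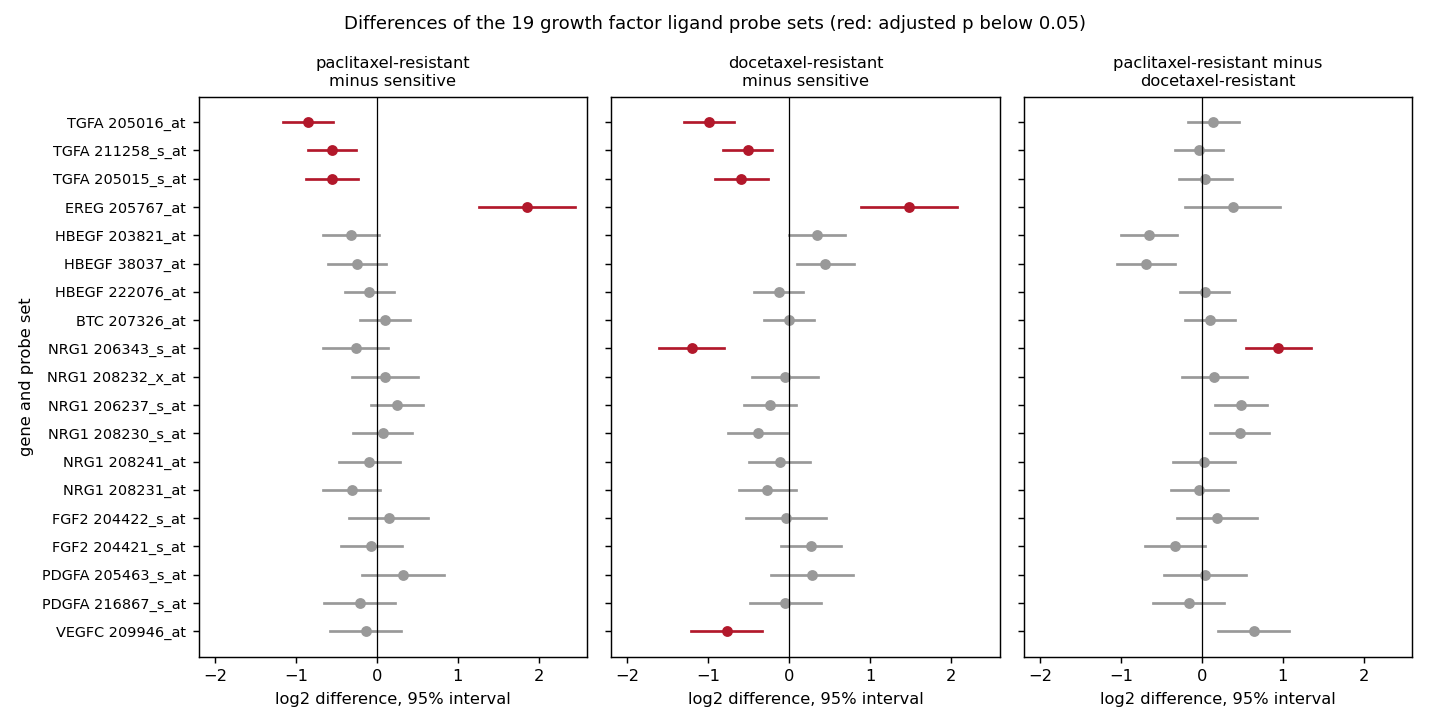
Differences on the log2(intensity + 16) scale for the 19 ligand probe sets, 1 panel for each comparison, with 95% confidence intervals as bars; red marks an adjusted p below 0.05. The 3 TGFA probe sets lie below 0 and EREG above 0 in both comparisons with sensitive cells, while NRG1 206343_s_at and VEGFC are called lower in docetaxel-resistant cells and not called in paclitaxel-resistant cells.

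TGFA, transforming growth factor alpha, was lower in both resistant lines, by all 3 of its probe sets. The intensity of 205016_at was 166, 136 and 151 in paclitaxel-resistant cells, 150.5, 147 and 149 in docetaxel-resistant cells, and 300.1, 208 and 344 in sensitive cells. Every resistant array lay below every sensitive array. The mean ± SD was 151 ± 14.7 in paclitaxel-resistant, 149 ± 2.00 in docetaxel-resistant and 284 ± 69.7 in sensitive cells (n = 3 each). On the log2 scale TGFA differed by -0.85 ± 0.14 (SE) in paclitaxel-resistant cells, 1.80-fold lower (limma adjusted p = 0.00159), and by -0.99 ± 0.14 in docetaxel-resistant cells, 1.99-fold lower (limma adjusted p = 0.000639). Both calls held in all alternative settings. The resistant lines differed from each other by 0.14, with a 95% confidence interval of -0.17 to 0.45 (limma adjusted p = 0.813).

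The other 2 TGFA probe sets were dimmer and moved the same way. With 211258_s_at the intensity was 20.2, 29.7 and 26.1 in paclitaxel-resistant cells, 25.6, 29.6 and 26.7 in docetaxel-resistant cells, and 39.2, 36.7 and 47.4 in sensitive cells, with no overlap between resistant and sensitive arrays. The log2 difference from sensitive cells was -0.55 ± 0.14 (limma adjusted p = 0.0146) in the paclitaxel line and -0.52 ± 0.14 (limma adjusted p = 0.021) in the docetaxel line. The dimmest, 205015_s_at, read 9.27, 6.7 and 14.7 in paclitaxel-resistant cells, 7.19, 12.6 and 9.46 in docetaxel-resistant cells, and 23.0, 17.3 and 24.2 in sensitive cells. All 6 resistant arrays of this probe set were below 16, the level of the added constant, and all 3 sensitive arrays were above it. Its log2 differences from sensitive cells were -0.55 ± 0.15 in the paclitaxel line (limma adjusted p = 0.0226) and -0.60 ± 0.15 in the docetaxel line (limma adjusted p = 0.0164). With a constant of 1 in place of 16 they were -1.09 in the paclitaxel and -1.19 in the docetaxel line, and with 64 they were -0.22 and -0.23 in these lines, so the size of the change at this intensity follows the constant. Calls of these 2 probe sets were lost when some single arrays were left out, with an adjusted p of at most 0.0767 for 211258_s_at (without sensitive replicate 3, docetaxel-resistant replicates 1 or 3, or paclitaxel-resistant replicate 1) and of at most 0.0909 for 205015_s_at (without sensitive replicates 1 or 3, docetaxel-resistant replicates 1 or 3, or paclitaxel-resistant replicates 1 or 2).

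EREG, epiregulin, was higher in both resistant lines and was the only ligand of the 8 called higher in either comparison with sensitive cells. Its probe set 205767_at read 92.4, 138 and 60.8 in paclitaxel-resistant cells, 70.2, 56.0 and 102 in docetaxel-resistant cells, and 6.66, 15.2 and 21.5 in sensitive cells. The lowest resistant array stood above the highest sensitive array, and 2 of the 3 sensitive arrays were below 16. The mean ± SD was 97.0 ± 38.7 in paclitaxel-resistant, 75.9 ± 23.3 in docetaxel-resistant and 14.5 ± 7.46 in sensitive cells (n = 3 each). On the log2 scale EREG was higher by 1.86 ± 0.27 in the paclitaxel line (limma adjusted p = 0.00065) and by 1.48 ± 0.27 in the docetaxel line (limma adjusted p = 0.00287). The size depends on the constant, because the sensitive level is low: with 1 it was 2.70 in the paclitaxel and 2.26 in the docetaxel line, and with 64 it was 1.02 and 0.76 in these lines, while both calls held in all alternative settings. The lines differed by 0.38 (95% confidence interval -0.21 to 0.97, limma adjusted p = 0.684).

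**Figure D2:**
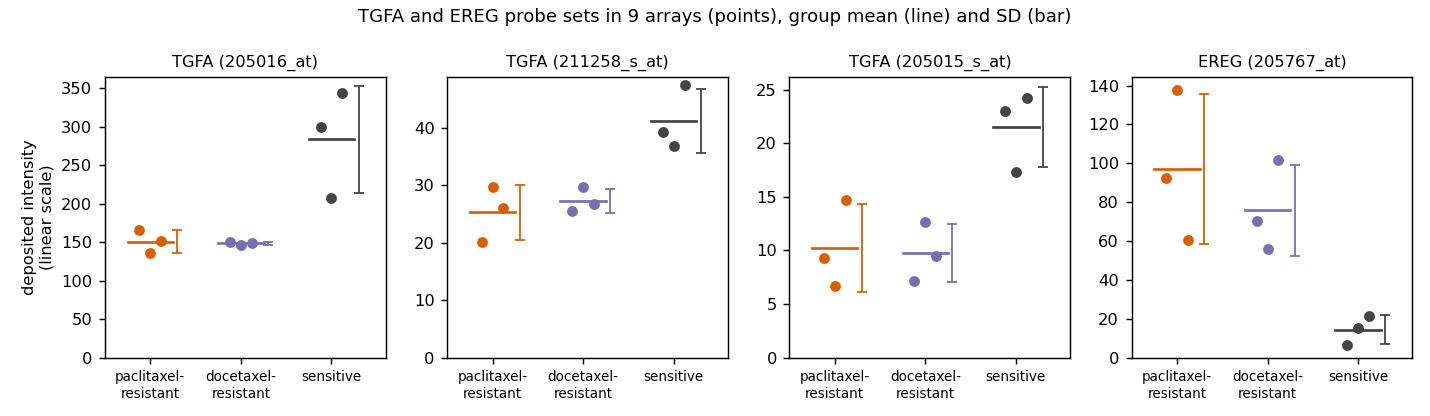
Intensity as deposited, on linear axes that start at 0, of the 3 TGFA probe sets and the EREG probe set on each of the 9 arrays. Points are arrays, lines group means and bars the SD, with paclitaxel-resistant cells left, docetaxel-resistant cells in the middle and sensitive cells right. For each TGFA probe set the resistant arrays lie below the sensitive ones, and for EREG they lie above.

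The genes of EREG, AREG and BTC lie in 1 cluster on chromosome 4. BTC, betacellulin, the measured neighbour on the far side of EREG, did not share its change. Its probe set 207326_at read 8.44, 5.7 and 9.61 in paclitaxel-resistant cells, 6.88, 8.82 and 4.43 in docetaxel-resistant cells, and 6.02, 9.06 and 4.29 in sensitive cells. The groups overlapped and all 9 arrays were below 16, a level from which a fall would hardly be visible on this scale, while no rise was called. The neighbour on the other side, MTHFD2L, differed by -0.16 and 0.10 in the paclitaxel and docetaxel lines (limma adjusted p = 0.589 and 0.748). The neighbours of TGFA were not called either: SNRPG differed by -0.29 in the paclitaxel and -0.12 in the docetaxel line, and ADD2 by 0.25 and 0.24 in these lines.

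HBEGF, heparin-binding EGF-like growth factor, was not called in any comparison, and the means of the resistant lines lay on opposite sides of that of sensitive cells. Probe set 203821_at read 322, 217 and 294 in paclitaxel-resistant cells, 440.1, 500.01 and 467 in docetaxel-resistant cells, and 318, 288 and 421 in sensitive cells. As deposited, the docetaxel-resistant arrays were above all others, while the paclitaxel-resistant and sensitive arrays overlapped. After normalisation docetaxel-resistant replicate 3 lay just below sensitive replicate 3 (8.759 and 8.766 on the log2 scale). A second probe set, 38037_at, gave 174, 132 and 180.0 in paclitaxel-resistant cells, 258, 319 and 295 in docetaxel-resistant cells, and 164, 196 and 208 in sensitive cells, with the same order of groups. Neither was called against sensitive cells: the log2 differences were -0.32 and -0.24 in the paclitaxel line (limma adjusted p = 0.207 and 0.369) and 0.34 and 0.45 in the docetaxel line (limma adjusted p = 0.175 and 0.0835). Between the lines they differed by -0.66 (95% confidence interval -1.0 to -0.31) and -0.69 (-1.04 to -0.33), with limma adjusted p = 0.0674 and 0.0632. These miss the threshold. Both were called between the lines with a constant of 64 (limma adjusted p = 0.0427 and 0.0453) and when only the brighter probe sets were tested (0.0464 and 0.0437). In all, 203821_at was called between the lines in 2 of 19 alternative settings and 38037_at in 6 of 17. Against sensitive cells, 38037_at was called in the docetaxel line only without sensitive replicate 2 (limma adjusted p = 0.0399). The remaining HBEGF probe set, 222076_at, was below 16 on all 9 arrays.

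NRG1 separated the lines by a single probe set of 6. Probe set 206343_s_at read 120, 80.1 and 105 in paclitaxel-resistant cells, 39.4, 53.8 and 53.1 in docetaxel-resistant cells, and 164, 72.3 and 139 in sensitive cells. The docetaxel-resistant arrays lay below all the others, whereas the paclitaxel-resistant arrays fell within the range of the sensitive ones. The mean ± SD was 102 ± 20.0 in paclitaxel-resistant, 48.8 ± 8.10 in docetaxel-resistant and 125 ± 47.4 in sensitive cells (n = 3 each). Docetaxel-resistant cells were lower than sensitive cells, with a log2 difference of -1.21 ± 0.18 (limma adjusted p = 0.000891), a call that held in all alternative settings that kept this probe set. Paclitaxel-resistant cells differed from sensitive cells by -0.26 ± 0.18 (95% confidence interval -0.66 to 0.14, limma adjusted p = 0.393). The direct test between the lines gave 0.94 ± 0.18, higher in paclitaxel-resistant cells (limma adjusted p = 0.0263). That call rests on each resistant array: without any single one of the 6 the adjusted p was above 0.05, up to 0.110, and it was also lost with a constant of 1 (0.103) and with median centring in place of quantile normalisation (0.0576).

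The other 5 NRG1 probe sets were not called in any comparison. Probe set 208232_x_at lay between 59.2 and 101 over all 9 arrays, with the 3 groups overlapping. The dimmer 206237_s_at read 25.5, 27.7 and 25.8 in paclitaxel-resistant cells, 12.1, 17.6 and 14.2 in docetaxel-resistant cells, and 15.5, 15.5 and 26.7 in sensitive cells. Its paclitaxel-resistant arrays were all above its docetaxel-resistant ones, with a log2 difference of 0.49 that was not called (limma adjusted p = 0.145), and 208230_s_at differed between the lines by 0.47 (limma adjusted p = 0.24). The dimmest, 208241_at and 208231_at, were below 16 on 7 and 8 of the 9 arrays. NRG1 has many transcript forms, and which of them each probe set reads is not given in the sources used here. With the 6 probe sets averaged, the log2 difference of docetaxel-resistant from sensitive cells was -0.38 (limma adjusted p = 0.0403) and the lines differed by 0.34 (limma adjusted p = 0.197). Of the measured neighbours of NRG1, WRN was not called, and MAK16 was higher by 1.36 ± 0.24 in the paclitaxel line (limma adjusted p = 0.00236) and by 0.75 in the docetaxel line, which was not called (limma adjusted p = 0.0561).

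**Figure D3:**
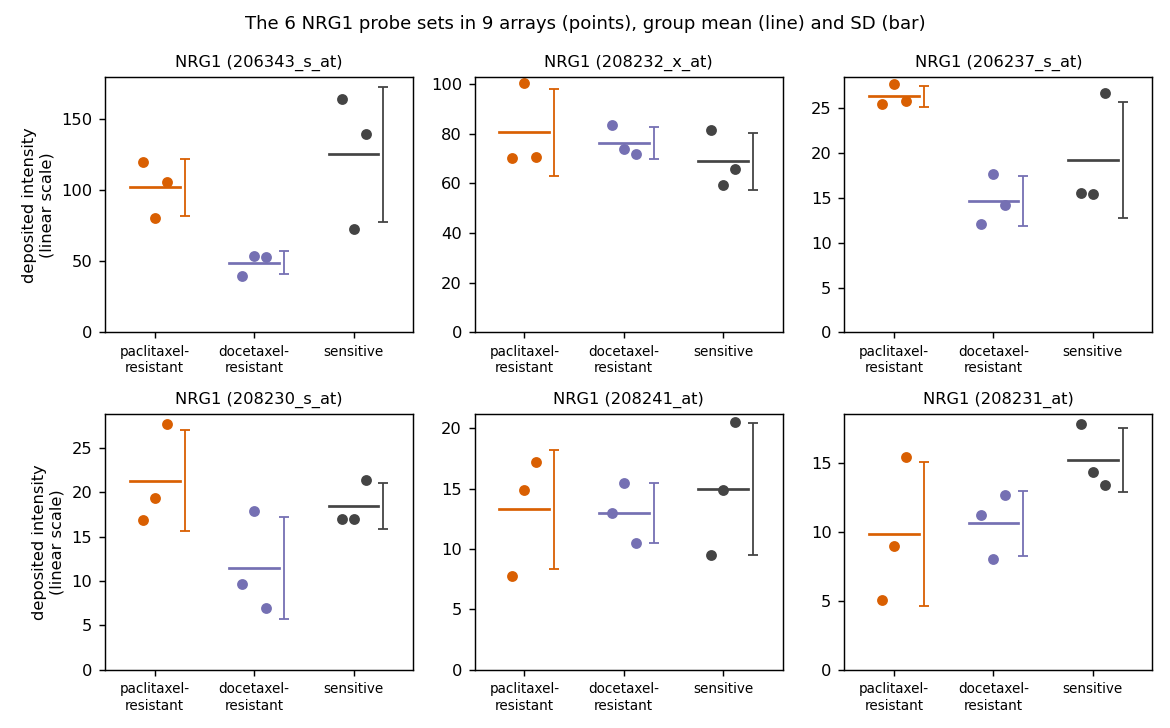
Intensity as deposited, on linear axes that start at 0, of the 6 NRG1 probe sets on each of the 9 arrays (points), with group means as lines and the SD as bars, paclitaxel-resistant cells left, docetaxel-resistant cells in the middle and sensitive cells right. In 206343_s_at the docetaxel-resistant arrays, at 39.4 to 53.8, lie below all other arrays, and 208232_x_at shows the groups overlapping.

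VEGFC, a growth factor for lymphatic and blood vessels, was lower in docetaxel-resistant cells. Its probe set 209946_at read 467, 404 and 412 in paclitaxel-resistant cells, 346, 263 and 269 in docetaxel-resistant cells, and 386, 465 and 571 in sensitive cells. The docetaxel-resistant arrays were the 3 lowest as deposited, though not after normalisation, where they overlapped the sensitive ones, and the paclitaxel-resistant arrays fell within the sensitive range. The mean ± SD was 428 ± 33.8 in paclitaxel-resistant, 293 ± 46.2 in docetaxel-resistant and 474 ± 93.0 in sensitive cells (n = 3 each). The log2 difference from sensitive cells was -0.77 ± 0.20 in the docetaxel line, 1.71-fold lower (limma adjusted p = 0.0187), and -0.14 ± 0.20 in the paclitaxel line (95% confidence interval -0.57 to 0.30, limma adjusted p = 0.723). Between the lines it was 0.64 (95% confidence interval 0.20 to 1.08), which was not called (limma adjusted p = 0.16), so a difference between the lines is not shown for VEGFC. The docetaxel call was lost without sensitive replicates 2 or 3 or docetaxel-resistant replicates 2 or 3 (limma adjusted p up to 0.0799) and with a constant of 1 (0.0575). Of its neighbours on chromosome 4, NEIL3 was not called, and SPCS3 was higher in the paclitaxel line by 0.70 ± 0.15 (limma adjusted p = 0.00609) and not called in the docetaxel line.

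PDGFA, a mitogen for mesenchymal cells, was not called in any comparison. Probe set 205463_s_at read 75.1, 69.6 and 107 in paclitaxel-resistant cells, 91.3, 91.5 and 79.2 in docetaxel-resistant cells, and 42.9, 46.0 and 102 in sensitive cells. Its log2 differences from sensitive cells were 0.33 ± 0.23 (limma adjusted p = 0.403) in the paclitaxel line and 0.28 ± 0.23 (limma adjusted p = 0.471) in the docetaxel line. Sensitive replicate 3 lay among the resistant arrays, and the other two sensitive arrays lay below them all. The second probe set, 216867_s_at, ranged from 8.75 to 28.0 over the 9 arrays with overlapping groups.

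FGF2, basic fibroblast growth factor, was near the bottom of the scale. Probe set 204422_s_at lay between 0.01 and 15.7 and was below 16 on all 9 arrays, and 204421_s_at lay between 2.63 and 17.5 and was below 16 on 8 of them. Neither was called in any comparison. At that intensity a fall could hardly be seen, and no level is claimed for FGF2.

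**Figure D4:**
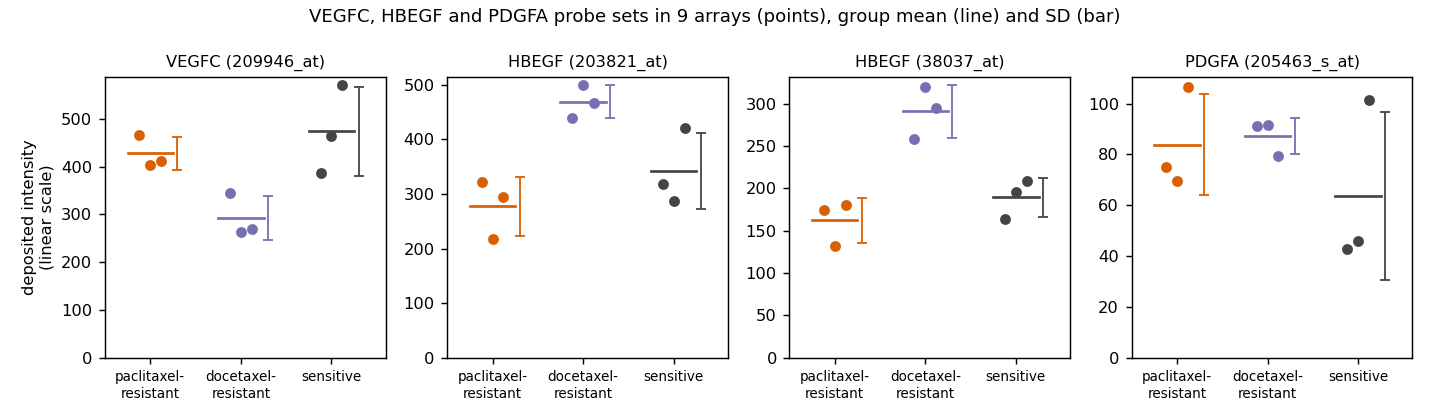
Intensity as deposited, on linear axes that start at 0, of VEGFC, the 2 brighter HBEGF probe sets and the brighter PDGFA probe set on each of the 9 arrays (points), with group means as lines and the SD as bars, paclitaxel-resistant cells left, docetaxel-resistant cells in the middle and sensitive cells right. Docetaxel-resistant arrays are the lowest for VEGFC and the highest for both HBEGF probe sets.

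TGFA 205016_at had the largest F statistic of the 19 probe sets, and the genes whose pattern over the 9 arrays was most like it were PPM1F (Pearson r = 0.991), HDLBP (0.991), ZSCAN18 (0.986), ATP10A (0.980) and RPS4X (0.980). These correlations describe arrays that fall into 3 groups, so they mainly restate the difference between resistant and sensitive cells. ZSCAN18 differed far more than TGFA, by -4.15 and -4.53 on the log2 scale in the paclitaxel and docetaxel lines, and RPS4X far less, by -0.21 and -0.22.

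Other ligands of the same families were counted with 1 probe set per gene, the brightest on average, against a background of 21% of genes called in paclitaxel-resistant cells (10.5% higher, 10.4% lower) and 20.2% in docetaxel-resistant cells (10.4% higher, 9.8% lower). Of 5 further EGF family ligands 2 were measured, and neither was called in any comparison by limma, nor was either below 0.05 unadjusted. EGF itself differed by -0.17 in each line. Of 18 FGF ligands measured, 2 were higher in both lines and none was lower. FGF13, which acts inside the cell on sodium channels and is not secreted like FGF2, read 292, 291 and 357 in paclitaxel-resistant cells, 536, 513 and 635 in docetaxel-resistant cells, and 83.7, 49.8 and 87.2 in sensitive cells. Its log2 difference from sensitive cells was 1.85 ± 0.17 in the paclitaxel line (limma adjusted p = 2.09e-05) and 2.58 ± 0.17 in the docetaxel line (limma adjusted p = 1.31e-06). The secreted FGF5 was higher by 1.15 ± 0.19 in the paclitaxel line (limma adjusted p = 0.00158) and by 1.31 ± 0.19 in the docetaxel line (limma adjusted p = 0.000735). Of 6 other PDGF and VEGF ligands measured, PDGFC and PDGFD were higher and VEGFA was lower in paclitaxel-resistant cells, and PDGFB and PDGFC were higher and VEGFA and VEGFB lower in docetaxel-resistant cells. PDGFC, a ligand of PDGFRA like PDGFA, was higher by 1.28 ± 0.18 in the paclitaxel line (limma adjusted p = 0.000602) and by 0.91 ± 0.18 in the docetaxel line (limma adjusted p = 0.00509). VEGFA, the main growth factor of blood vessels, differed by -0.99 ± 0.17 in the paclitaxel line (limma adjusted p = 0.00207) and by -0.71 ± 0.17 in the docetaxel line (limma adjusted p = 0.0144), and all 4 of its probe sets were called lower in both lines. The docetaxel call of VEGFA was lost without sensitive replicates 2 or 3 or docetaxel-resistant replicate 3 (up to 0.0589). The docetaxel call of PDGFB was lost in 3 alternative settings, and the paclitaxel call of PDGFD in 8. Of the 4 PDGFB probe sets, 1 was called higher in the paclitaxel and 2 in the docetaxel line. The dimmer 204200_s_at was called in both, higher by 0.55 in the paclitaxel line (limma adjusted p = 0.0273) and by 1.08 in the docetaxel line (limma adjusted p = 0.000619).

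Of 15 ligands and cytokines of other families, 4 were higher (MDK, LIF, CCN1 and CCN2) and 1 was lower (CSF1) in paclitaxel-resistant cells, and 3 were higher (LIF, CCN1 and CCN2) in docetaxel-resistant cells. Over all genes, 21% were called in paclitaxel-resistant and 20.2% in docetaxel-resistant cells. The call of MDK (limma adjusted p = 0.0464) was lost in 10 of 19 alternative settings, the docetaxel calls of LIF and CCN2 in 5 each, and the paclitaxel call of CCN2 in 1. CCN1, a matrix-bound ligand of integrins, read 4000, 5407 and 4255 in paclitaxel-resistant cells, 4832, 5259 and 5001 in docetaxel-resistant cells, and 1602, 1833 and 1959 in sensitive cells. It was higher by 1.35 ± 0.16 in the paclitaxel line (limma adjusted p = 0.000159) and by 1.49 ± 0.16 in the docetaxel line (limma adjusted p = 8.56e-05). The cytokine LIF was higher by 1.25 ± 0.18 in the paclitaxel line (limma adjusted p = 0.00067) and by 0.68 ± 0.18 in the docetaxel line (limma adjusted p = 0.0231). CSF1, a growth factor of macrophages, was lower in the paclitaxel line, with a log2 difference of -1.06 ± 0.22 (limma adjusted p = 0.00555). In the docetaxel line the same CSF1 probe set differed by -0.68 ± 0.22 and was not called (limma adjusted p = 0.0541), 2 of the other CSF1 probe sets were called lower there, and the difference between the lines was not called (limma adjusted p = 0.561).

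Among the receptors, EGFR was higher in both resistant lines, next to the lower TGFA and higher EREG. Its brightest probe set, 201983_s_at, read 772, 1085 and 1024 in paclitaxel-resistant cells, 1079, 792 and 1264 in docetaxel-resistant cells, and 282, 313 and 357 in sensitive cells. The log2 difference from sensitive cells was 1.49 ± 0.22 in the paclitaxel line (limma adjusted p = 0.000656) and 1.56 ± 0.22 in the docetaxel line (limma adjusted p = 0.000524), with no overlap. The 6 EGFR probe sets did not all show it: 1 was called higher in paclitaxel-resistant cells and 3 in docetaxel-resistant cells, and none was called lower. ERBB2, ERBB3 and ERBB4, the partners of EGFR and the receptors of NRG1, were not called in either line, with differences between -0.16 and 0.33.

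All 15 receptors were measured: 4 were higher and 2 lower in paclitaxel-resistant cells, and 4 higher and 1 lower in docetaxel-resistant cells. The share called over all genes was 21% in paclitaxel-resistant and 20.2% in docetaxel-resistant cells. FGFR3 was higher by 1.25 ± 0.15 in the paclitaxel line (limma adjusted p = 0.000178) and by 0.89 ± 0.15 in the docetaxel line (limma adjusted p = 0.00179, lost with the mean of its probe sets). FGFR4 was higher by 0.84 in the paclitaxel line (limma adjusted p = 0.00113) and by 0.67 in the docetaxel line (limma adjusted p = 0.00463). FGFR1 went the other way, with a log2 difference of -0.47 ± 0.15 in the paclitaxel line (limma adjusted p = 0.0439, a call lost in 12 alternative settings) and of -1.05 ± 0.15 in the docetaxel line (limma adjusted p = 0.000524). FGFR2 was lower in the paclitaxel line by its brightest probe set, with a difference of -0.73 that lost its call in 4 alternative settings. With the mean of the FGFR2 probe sets the difference was -0.063 (limma adjusted p = 0.736), so the fall is not shown for the gene as a whole. PDGFRB was higher by 1.11 ± 0.22 in the paclitaxel line (limma adjusted p = 0.00431) and by 1.04 ± 0.22 in the docetaxel line (limma adjusted p = 0.00666). PDGFRB is also a fibroblast marker; of the 6 fibroblast markers it was the only one called in either line, their summed intensity was 249 to 338 in paclitaxel-resistant, 268 to 316 in docetaxel-resistant and 225 to 240.4 in sensitive cells, and LUM was below 16 on all 9 arrays. PDGFRA, the receptor of PDGFA, and the VEGFC receptors KDR and FLT4 were not called, and read at most 39.4 on any array. Between the resistant lines limma called none of the 15, of which 3 had an unadjusted p below 0.05, against 1.88% of all genes called.

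Of 12 enzymes and regulators of ligand shedding measured, 1 was higher (ADAM9) and 4 were lower (ADAM8, RHBDF1, TIMP3 and BACE1) in paclitaxel-resistant cells, and 1 was higher (ADAM10) and 3 were lower (ADAM8, TIMP3 and BACE1) in docetaxel-resistant cells. Over all genes 21% were called in paclitaxel-resistant cells, 10.4% lower, and 20.2% in docetaxel-resistant cells, 9.8% lower. The paclitaxel call of ADAM9 was lost in 3 alternative settings and the docetaxel call of BACE1 in 4. TIMP3, a matrix-bound inhibitor of metalloproteases that also blocks ADAM17, had the largest difference of the 12. It read 80.6, 46.6 and 64.3 in paclitaxel-resistant cells, 18.8, 22.7 and 18.2 in docetaxel-resistant cells, and 569, 372 and 482 in sensitive cells. Its log2 difference from sensitive cells was -2.67 ± 0.15 in the paclitaxel line (limma adjusted p = 3.81e-07) and -3.82 ± 0.15 in the docetaxel line (limma adjusted p = 1.31e-08), and all 4 TIMP3 probe sets were lower in both lines. Between the lines TIMP3 was higher in paclitaxel-resistant cells, by 1.15 (limma adjusted p = 0.0025). There 201147_s_at was also called, by 0.75 (limma adjusted p = 0.0461), while 201148_s_at and 201149_s_at differed by 0.32 and 0.62 without a call. ADAM8 differed by -0.68 ± 0.18 (limma adjusted p = 0.02, lost in 5 alternative settings) in the paclitaxel line and by -2.57 ± 0.18 (limma adjusted p = 2.4e-06) in the docetaxel line, and the direct test between the lines gave 1.89 ± 0.18 (limma adjusted p = 0.000241). ADAM17, the main sheddase of TGFA, AREG, EREG and HBEGF, gave no single answer. Its brightest probe set differed by 0.14 in the paclitaxel and 0.33 in the docetaxel line (limma adjusted p = 0.709 and 0.313). In the same order of lines 205745_x_at was higher by 1.53 and 1.71 and 213532_at by 1.15 and 1.20, all called. ADAM10 was called higher in the docetaxel line only, by 1.21 ± 0.36 (limma adjusted p = 0.0393), a call lost in 9 alternative settings. Its dimmer 202604_x_at was also called higher there, by 0.96 (limma adjusted p = 0.0121), and 214895_s_at differed by 0.91 without a call (limma adjusted p = 0.0636). By the brightest probe set ADAM10 differed by 0.57 in the paclitaxel line, and the difference between the lines was not called (limma adjusted p = 0.557).

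Of 12 proteoglycans and partners that hold heparin-binding ligands at the cell surface, 2 were higher in paclitaxel-resistant cells (SDC2 and NRDC), and 1 was higher (SDC2) and 1 lower (CD44) in docetaxel-resistant cells. Over all genes, 21% were called in paclitaxel-resistant and 20.2% in docetaxel-resistant cells, so these counts do not set the list apart. The call of CD44 (limma adjusted p = 0.048) was lost in 10 of 18 alternative settings, among them leaving out any docetaxel-resistant array, and 2 of its 8 probe sets were called. SDC2, syndecan-2, was higher by 1.31 ± 0.17 in the paclitaxel line (limma adjusted p = 0.000284) and by 0.91 ± 0.17 in the docetaxel line (limma adjusted p = 0.00305).

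Among 20 genes that answer or damp ERK signalling, 4 were higher (DUSP1, SPRED2, ETV1 and EPHA2) and 5 lower (DUSP5, SPRY2, IER3, PHLDA1 and LRIG1) in paclitaxel-resistant cells, and 1 was higher (DUSP1) and 7 were lower (DUSP4, DUSP6, SPRY1, SPRY2, IER3, PHLDA1 and LRIG1) in docetaxel-resistant cells. Together these are 9 and 8 of the 20, beside 21% of all genes called in paclitaxel-resistant cells (10.5% higher, 10.4% lower) and 20.2% in docetaxel-resistant cells (10.4% higher, 9.8% lower). Calls were lost in up to 5 alternative settings for IER3, DUSP1, ETV1 and PHLDA1 in the paclitaxel line and in up to 3 for LRIG1 and PHLDA1 in the docetaxel line. SPRY2, an inhibitor of receptor tyrosine kinase signalling, was lower in both, with log2 differences of -1.72 ± 0.15 in the paclitaxel line (limma adjusted p = 1.86e-05) and -1.43 ± 0.15 in the docetaxel line (limma adjusted p = 8.68e-05). Between the lines 5 of these genes were higher and 1 was lower in paclitaxel-resistant than in docetaxel-resistant cells, against 0.945% and 0.936% of all genes. DUSP6, an ERK phosphatase, read 1343, 1184 and 1178 in paclitaxel-resistant cells and 462, 592 and 672 in docetaxel-resistant cells, next to 1390.4, 662 and 1065 in sensitive cells. The difference between the lines was 1.16 ± 0.18 (limma adjusted p = 0.00793). DUSP4 differed by 1.06 ± 0.14 (limma adjusted p = 0.00235) in the same direction, and DUSP5 by -1.16 ± 0.16 (limma adjusted p = 0.00302) in the other. The calls of SPRY1, SPRY4 and ETV4 between the lines were each lost in 6 or 8 alternative settings.

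**Figure D5:**
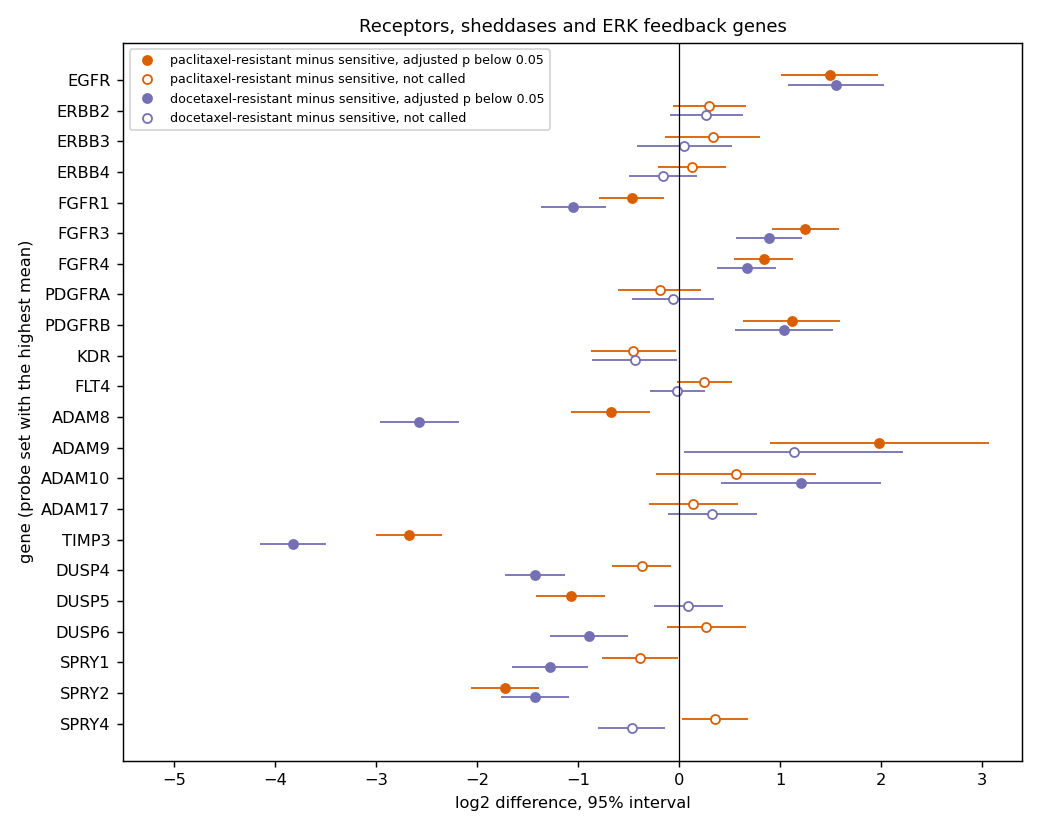
Differences on the log2(intensity + 16) scale from sensitive cells for receptors, sheddases with their regulators, and ERK feedback genes, 1 point per gene and resistant line with its 95% confidence interval. Filled points mark an adjusted p below 0.05. TIMP3 lies lowest, at -2.67 in the paclitaxel and -3.82 in the docetaxel line, and EGFR lies above 1 in both.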

How the data were processed

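The deposited table holds 1 probe set intensity on a linear scale per probe set and array. The authors made these values with PLIER, which combines the probes of a set, in Affymetrix Expression Console 1.1.2, per the submitters' processing notes. The sources used here do not give the background correction, normalisation or detection calls. Groups were taken from the labels, and all 9 arrays were used.

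Of 22283 probe sets, 68 controls were left out. Gene names came from the platform annotation, updated through RefSeq. Values became log2(intensity + 16), and because array medians differed by 0.27, above the limit of 0.2, the arrays were quantile-normalised. A linear model with 3 group means was fitted to all probe sets in R 4.3.3 with limma 3.58.1 (6 residual and 5.82 prior degrees of freedom, median SE 0.16). Tests were two-sided, moderated, and adjusted by Benjamini and Hochberg over 22215 probe sets per comparison. The code was tested on simulated data. No counts exist, so the number of arrays limits the precision, and p-values measure only the spread between passages.

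The members and gene lists were chosen with earlier results of these data known. Named are all members, up to 4 called genes of each list with the smallest adjusted p per comparison, fixed receptors, sheddases and ligands, the measured neighbours of called members and the 5 genes most like the member with the largest F. The lists are other EGF family ligands, FGF ligands, other PDGF and VEGF ligands, other growth factor ligands, receptors, sheddases and regulators, ligand-binding proteoglycans and partners, and ERK feedback genes. Alternatives changed the constant (1 or 64), the normalisation, the filter, the probe sets used, the variance model, the arrays in the fit and the replicate block, and left out each array in turn.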

Additional observations from a re-analysis of the deposited data

Results flagged for a closer look

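The ligand probe sets were searched for effects that differ between the resistant lines. Groups of 3 arrays are too small to search for arrays far from the others of their group. The search gave 1 result: NRG1 206343_s_at differed by 0.94 on the log2 scale between paclitaxel-resistant and docetaxel-resistant cells, by the direct test of that difference (limma adjusted p = 0.0263). Listed genes called between the lines, such as ADAM8 and DUSP4, were outside this search. The other 5 NRG1 probe sets gave no such call.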

How the results depend on the processing

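Of the 11 called ligand differences, 166 of 191 alternative values kept direction and call, 25 lost the call and 0 reversed. The losses are given with each gene, and their cause was not tested. Of 68 called differences of listed genes, 1132 of 1251 alternative values kept the call, 119 lost it and 0 reversed. Ligand probe sets called in paclitaxel-resistant against sensitive cells numbered 4, and 2 with the filter on dim probe sets, with 1 probe set per gene, with the mean of a gene's probe sets, and once probe sets named _x_at or _s_at were left out. In each of these settings the 2 dimmer TGFA probe sets were not tested on their own, so that fall is not a loss of their calls. In docetaxel-resistant against sensitive cells the called ligand probe sets numbered 6, and 3 without _x_at and _s_at probe sets. The latter setting does not test the called _s_at probe sets of TGFA and NRG1. Between the lines limma called 1, which became 0 with a constant of 1 (6 at an unadjusted p under 0.05), with the mean of probe sets (3) and without _x_at and _s_at probe sets (3), 2 with the 6 arrays of the resistant lines alone, and 3 with a constant of 64 or with the filter. Leaving out each array in turn gave 2 to 4 calls in the paclitaxel, 3 to 6 in the docetaxel and 0 to 2 in the between-line comparison. Listed genes called in paclitaxel-resistant cells numbered 32, and 15 without _x_at and _s_at probe sets. In docetaxel-resistant cells they numbered 28, and 11 without them. Between the lines they numbered 8, with 3 without them, 4 with a constant of 1, 13 with 64, and 5 to 9 when each array was left out. Listed genes read by an _x_at or _s_at probe set, among them EGFR and TIMP3, were not tested without those probe sets. The lower numbers of that setting are thus not counts of lost calls. Over all genes, 21% were called in the paclitaxel, 20.2% in the docetaxel and 1.88% in the between-line comparison.

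Small differences that were called under no setting changed sign. For docetaxel-resistant minus sensitive cells these were BTC (0.010 with a constant of 1; -0.080 to 0.091 leaving out arrays), FGF2 204422_s_at (0.48 with a constant of 1, 0.11 for the mean of probe sets; -0.34 to 0.18), NRG1 208232_x_at (-0.16 to 0.034) and PDGFA 216867_s_at (-0.17 to 0.11). For paclitaxel-resistant minus sensitive cells, leaving out arrays gave -0.19 to 0.0066 for HBEGF 222076_at, -0.10 to 0.23, -0.042 to 0.17 and -0.23 to 0.058 for NRG1 208232_x_at, 208230_s_at and 208241_at, and -0.15 to 0.37 for FGF2 204422_s_at. Between the lines it gave -0.12 to 0.071 and -0.071 to 0.13 for TGFA 211258_s_at and 205015_s_at, -0.061 to 0.14 for HBEGF 222076_at, -0.041 to 0.29, -0.067 to 0.18 and -0.18 to 0.11 for NRG1 208232_x_at, 208241_at and 208231_at, -0.14 to 0.16 for PDGFA 205463_s_at and -0.37 to 0.027 for PDGFA 216867_s_at. PDGFA 205463_s_at was -0.013 with median centring and -0.060 for the mean of probe sets, and FGF2 204422_s_at was -0.074 for that mean.

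The replicate numbers of the labels did not pair the arrays: the deviations of same-numbered arrays correlated above 0.1 in 3 of 9 pairs (-0.40 to 0.29). Some arrays of unlike number shared more. Sensitive replicate 1 correlated at 0.43 with docetaxel-resistant replicate 3, and sensitive replicate 2 at -0.43 with the same array. A block by replicate number does not cover variation shared in that way, and its source was not tested. With the replicate block the calls among the ligands numbered 4, 6 and 1 for the paclitaxel, docetaxel and between-line comparisons, as without it. Over all probe sets they numbered 3821, 3596 and 214 in place of 4128, 3922 and 356. Over the alternatives the between-line count ran from 84 (constant of 1) to 518 (constant of 64). The number of arrays and low signals limit which decreases can be seen for FGF2, BTC and the dim probe sets of NRG1 and HBEGF.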
